A study of Mus musculus with 9 samples.

Results

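The 10 genes described here sense, take up, store, release or export fatty acids and lipids, and their transcripts were measured in activated hepatic stellate cells (aHSCs) of the mouse, the cells that turn from vitamin A-storing pericytes into scar-forming myofibroblasts in injured liver. The genes were Gpr120, Pparg, Lpl, Cd36, Fabp4, Fabp5, Adfp, Pnpla2, Lipe and Apoe, 10 of the 30869 gene symbols on the array. They were chosen by function with the levels on these 9 arrays already known, among which the Gpr120 level of WT1-high cells stood out. The Gpr120 values are therefore a description with no test, and the tests of the other 9 genes are not independent evidence. All 10 genes were matched by symbol to 16 probes. Of these, 8 probes of 8 genes passed the detection filter (a deposited detection p-value under 0.05 on at least 3 of the 9 arrays), and Cd36 and Fabp4 did not pass it with any probe.

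The study compared aHSC subpopulations sorted by green fluorescent protein (GFP) in WT1GFP/+ reporter mice, all labelled male, on the C57/Bl6 background, after enrichment of stellate cells by density, with 1 Illumina MouseWG-6 bead array per sample. WT1-high (GFP high, replicates 1, 8 and 29) and WT1-intermediate (GFP low, replicates 1, 8 and 30) cells came straight from livers made fibrotic by repeated intraperitoneal carbon tetrachloride (CCl4) over 8 weeks, begun at 8 to 12 weeks of age, and the study's methods give 3 animals for these 6 arrays. WT1-negative cells (GFP negative, replicates 3, 11 and 14) were quiescent stellate cells of uninjured WT1GFP/+ livers that had been activated for 7 days on plastic and then sorted. In every group 1 WT1 allele carried the GFP knock-in, and no group came from mice without it. WT1 status against the WT1-negative group cannot be told apart from origin (injured liver or culture) and treatment, and both comparisons with WT1-negative cells share the same 3 control arrays. Per the study's methods, replicate cultures came from independent isolations of cells.

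Quiescent stellate cells hold fat and retinyl esters in cytoplasmic droplets, which are lost as the cells activate, and PPARγ, the nuclear receptor encoded by Pparg, is known for holding stellate cells in the quiescent state and for driving fat storage in adipocytes. Fatty acids reach a cell when lipoprotein lipase (Lpl) frees them from circulating triglyceride and the scavenger receptor CD36 carries them across the membrane, after which fatty acid binding proteins (Fabp4, Fabp5) ferry them through the cytosol. Triglyceride is kept in droplets coated by perilipins such as perilipin 2 (Adfp, now Plin2) and is broken down by adipose triglyceride lipase (Pnpla2) and hormone-sensitive lipase (Lipe), while apolipoprotein E (Apoe) carries lipid out of the cell. Several of these genes are also strongly used by macrophages, so macrophage markers are given beside them.

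The probes decide what each value measures, so the first 30 of the 50 bases are shown for the 6 genes whose differences are described most fully, all in lower case because no stretch is singled out. Of 3 Pparg probes, the first was detected on all 9 arrays, the second on 2 and the third on none.
Pparg ILMN_1221060: gatgacagacctcaggcagatcgtcacaga
Pparg ILMN_1221594: cacaagagctgacccaatggttgctgatta
Pparg ILMN_1221893: ctctgttttatgctgttatgggtgaaactc
Lpl ILMN_2692723: gtgctaactttgtgtccgtctccatccatg
Lpl ILMN_2585447: atcctcgccagcatgtgccccaatgaagga
Fabp5 ILMN_1235908: gccccgtcatttaagcttgccttaaatcgt
Fabp5 ILMN_2685290: tgccttaaatcgtttgaactttgtcaactc
Gpr120 ILMN_2746895: cctgctttaaaaatacccgacttccaacag
Adfp ILMN_1222246: agaaaattcagggtgctcaggataagctct
Apoe ILMN_1216042: ttttggtgaccgcatccgagggcggctgga
The second Lpl probe was detected on no array and the second Fabp5 probe on 1 array, although the first probe of each gene was detected on all 9. Except where the second Pparg probe is named, every gene level below is that of its brightest probe, on the normalized log2 scale. Levels are never compared between probes.

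PPARγ binds, with its partner RXR, a direct repeat of the hexamer AGGTCA with 1 base between the copies. The repeat AGGTCANAGGTCA was searched on both strands of the RefSeq promoter windows (250 bases before to 50 bases after a start, build GRCm38.p6). It was found in 13 of 32851 promoters (0.0396%) and in none of the 12 promoters of the 7 genes with an entry. The single hexamer, which the repeat contains, was found in 5340 promoters (16.3%) and in 4 of those 12, namely 2 of the 3 Pparg starts, Adfp (Plin2) and Cd36. The 120 bases that hold it are given for Pparg and Adfp, which differed between groups, with the hexamer in capitals as it reads on the gene's own strand (TGACCT is AGGTCA on the other strand).
Pparg, chr6:115361024-115361143, plus strand: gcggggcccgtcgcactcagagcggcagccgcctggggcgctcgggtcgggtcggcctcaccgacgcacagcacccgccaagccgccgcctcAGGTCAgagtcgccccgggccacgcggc
Pparg, chr6:115362229-115362348, plus strand: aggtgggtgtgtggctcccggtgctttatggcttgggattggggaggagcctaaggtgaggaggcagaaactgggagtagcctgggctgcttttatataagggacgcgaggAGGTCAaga
Adfp, chr4:86670190-86670309, minus strand: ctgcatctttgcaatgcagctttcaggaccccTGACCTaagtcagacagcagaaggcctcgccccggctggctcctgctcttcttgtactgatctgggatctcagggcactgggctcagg
Counted from the start, the hexamer began at base -28 and at base -9 for the 2 Pparg starts, and at base -218 for Adfp. Such a match is a description of these letters and shows no binding. Fabp4, Fabp5 and Lpl had no entry.

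Gpr120 encodes the receptor for long-chain unsaturated fatty acids at the cell surface (FFAR4). It was the only one of the 8 genes above the filter whose mean was highest in WT1-high cells by more than 1 on the log2 scale. Its level was 6.99, 6.56 and 6.93 on WT1-high replicates 1, 8 and 29. On WT1-intermediate replicates 1, 8 and 30 it was 4.30, 4.77 and 4.35, and replicate 8 alone was detected. On WT1-negative replicates 3, 11 and 14 it was 4.27, 4.21 and 4.25, with no array detected. All WT1-high arrays lay above all arrays of the other groups, which stayed near the background limit of their arrays (4.50 to 4.63). The WT1-high mean of 6.83 ± 0.23 (SD, n = 3) was 2.35 above that of WT1-intermediate cells (4.47 ± 0.26, SD, n = 3), where only 1 of 3 arrays measured the probe above background. Against WT1-negative cells it was at least 4.66-fold higher, taken against the lowest signal detected on those arrays. The size depended on how background was handled, and the distance of WT1-high from WT1-intermediate cells became 0.87 without background correction and 1.39 with an offset of 50. Because these are bulk samples, fewer cells of a type and less RNA per cell cannot be told apart, for Gpr120 or any gene below.

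The pattern of Gpr120 over the 9 arrays was most closely followed, among 14658 genes ranked by Pearson's r, by Isx (r = 0.986), an intestinal homeobox gene, 2610034B18Rik (r = 0.983) and Amhr2 (r = 0.983), the receptor for anti-Müllerian hormone. These correlations describe 9 arrays that fall into groups, and no p was attached. The Isx level was 4.96, 4.77 and 4.82 in WT1-high cells and between 4.17 and 4.27 on the other 6 arrays. Amhr2 was 5.93, 6.02 and 5.94 in WT1-high cells, 4.38, 4.82 and 4.74 in WT1-intermediate cells, and 4.48, 4.31 and 4.37 in WT1-negative cells. These genes were picked by their correlation with Gpr120, so standing highest on the same 3 arrays restates that choice. Isx and 2610034B18Rik (4.78, 4.56 and 4.69 on WT1-high replicates 1, 8 and 29) also lay close to background in WT1-high cells. The background limits of those arrays were 4.48, 4.50 and 4.65.

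**Figure D1:**
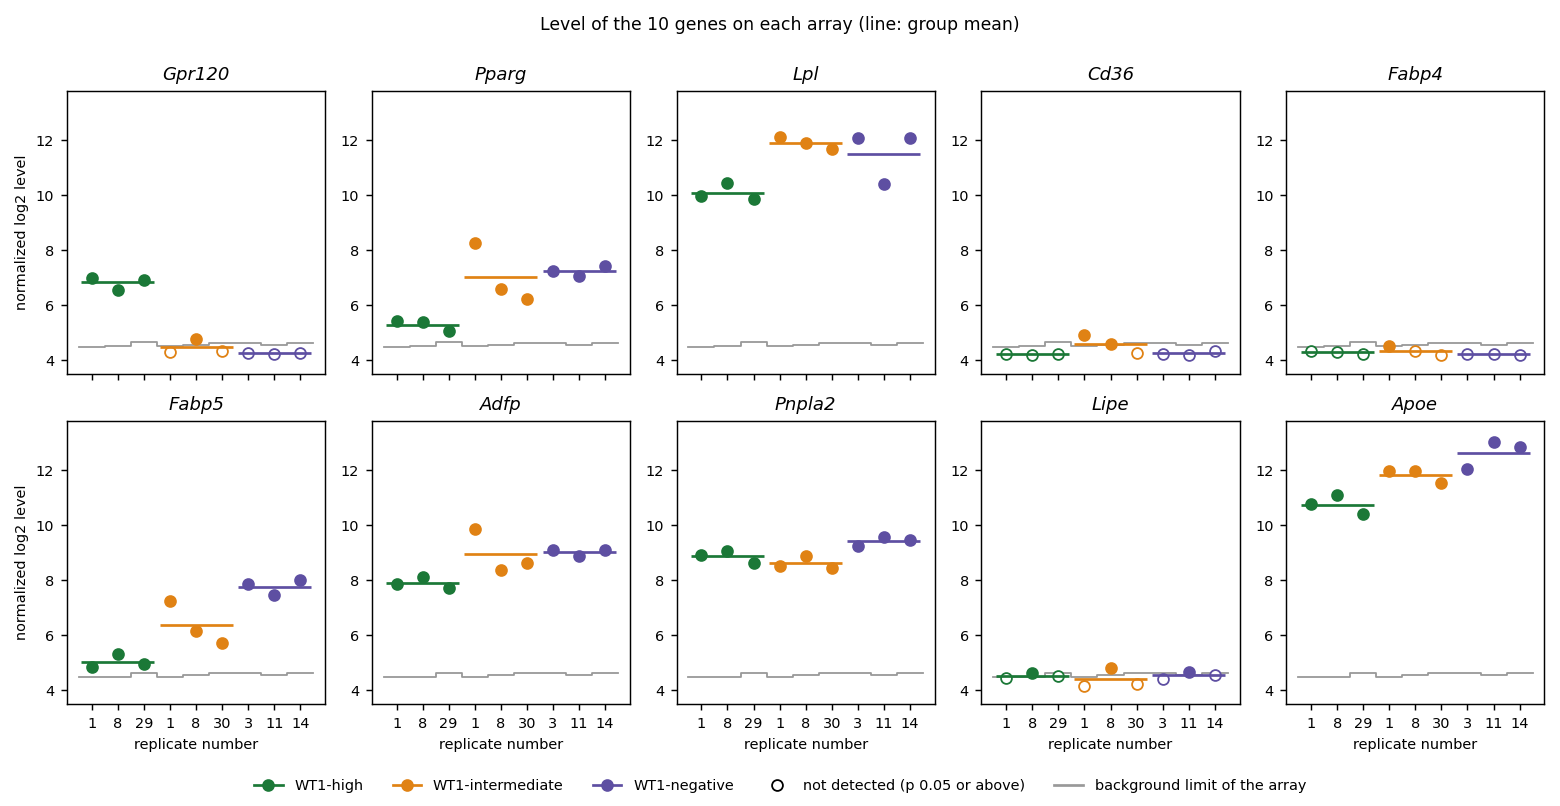
Normalized log2 level (y axis) of each of the 10 genes on each array, with the replicate number on the x axis. Filled points are detected and open points not detected, coloured lines are group means, and the grey line is the background limit of each array. Gpr120 was above background on all 3 WT1-high arrays and on 1 other array, while Pparg, Lpl, Fabp5, Adfp and Apoe were lower on all WT1-high arrays than on all WT1-intermediate arrays.

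The first comparison asked how WT1-high and WT1-intermediate cells of the same fibrotic livers differed. Pparg and Lpl fell below the level of WT1-intermediate cells, by 1.72 and 1.80 on the log2 scale. Fabp5, Adfp and Apoe were lower by 1.05 to 1.33 without passing the test, and Pnpla2 and Lipe differed by 0.25 and 0.12. Of the 7 genes tested besides Gpr120, 0 were called higher and 2 lower at an adjusted p under 0.05, with 5 at an unadjusted p under 0.05 by limma, all lower. Over all 20573 probes, 3.56% were called, 0.904% higher and 2.66% lower. The median difference of the 7 genes was -1.08, against 0.05 over all probes tested. The groups did not overlap in 5 of the 7 genes, against 20.1% of all probes.

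Pparg was 5.44, 5.38 and 5.06 on WT1-high replicates 1, 8 and 29. On WT1-intermediate replicates 1, 8 and 30 it was 8.25, 6.57 and 6.23. The groups did not overlap, but replicate 1 of the WT1-intermediate group stood far above the other 2. The difference of -1.72 (SE 0.40) had an adjusted p of 0.041 by limma. That call was lost in 11 of 22 other settings, including the removal of any 1 WT1-high array (adjusted p = 0.075, 0.12 and 0.12 without replicates 1, 8 and 29, limma) or any 1 WT1-negative array (0.058, 0.054 and 0.058 without replicates 3, 11 and 14), although these are not part of the contrast. It was kept with the animal as a fixed or random block, replicates 29 and 30 taken as 1 animal (adjusted p = 0.0068 and 0.0087, limma). Without WT1-intermediate replicate 1 the difference was -1.13 with an adjusted p of 0.019 (limma). The dim second Pparg probe was 4.32, 4.57 and 4.19 in WT1-high cells and 5.36, 4.41 and 4.55 in WT1-intermediate cells, so that it was highest on the same array.

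Lpl was 9.98, 10.45 and 9.85 on the WT1-high arrays and 12.10, 11.89 and 11.69 on the WT1-intermediate arrays. The gap between the groups was wider than the range within either of them. The difference was -1.80 (SE 0.38, adjusted p = 0.027 by limma), a 3.49-fold lower level in WT1-high cells. Lpl lost its call in 9 of 22 settings, with an adjusted p (limma) of 0.067, 0.057 and 0.086 without WT1-high replicates 1, 8 and 29, and of 0.10 and 0.058 without WT1-intermediate replicates 1 and 8. The call was kept with the animal as a fixed or random block, replicates 29 and 30 taken as 1 animal (adjusted p = 0.00039 and 0.0052, limma). The direction of the Lpl difference was the same in all 22.

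CD36 was scarcely measurable. Its probe was detected only on WT1-intermediate replicates 1 and 8, at 4.91 and 4.59, and lay between 4.19 and 4.33 on the other 7 arrays. Fabp4, the adipocyte and macrophage fatty acid binding protein, was detected on WT1-intermediate replicate 1 alone, at 4.50. Neither gene was tested. The background limits of WT1-intermediate replicates 1 and 8 were 4.50 and 4.55, so these few detections lay near background.

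Fabp5, the epidermal fatty acid binding protein, was 4.86, 5.34 and 4.95 in WT1-high cells and 7.27, 6.15 and 5.71 in WT1-intermediate cells. As for Pparg, replicate 1 was the highest WT1-intermediate array and the groups did not overlap. The difference was -1.33 (SE 0.33, adjusted p = 0.053 by limma). With the animal as a block (replicates 29 and 30 taken as 1 animal), the same difference of -1.33 had an adjusted p of 0.023 in limma. Without WT1-intermediate replicate 30, the value was -1.70 with an adjusted p of 0.014 (limma). Fabp5 stayed uncalled in 14 of 22 other settings, and without background correction it was at -0.52 (adjusted p = 0.21, limma).

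Adfp, the droplet coat protein, was 7.86, 8.12 and 7.73 in WT1-high cells and 9.87, 8.37 and 8.63 in WT1-intermediate cells. WT1-intermediate replicate 1 was again the highest array, and the other 2 lay just above the WT1-high arrays. The difference of -1.05 (SE 0.31) had an adjusted p of 0.10 by limma. With the animal as a fixed block it had an adjusted p of 0.052, and with the animal as a random block one of 0.037 (limma). Without WT1-intermediate replicate 8 it was -1.35 with an adjusted p of 0.045 (limma). Without replicate 1 of that group, the highest array, it was -0.59 with an adjusted p of 0.17 (limma). Adfp stayed uncalled in 18 of 22 other settings.

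Pnpla2, which takes the first fatty acid off stored triglyceride, was 8.92, 9.07 and 8.64 in WT1-high cells and 8.54, 8.88 and 8.47 in WT1-intermediate cells. The groups overlapped, and the difference was 0.25 (95% interval -0.13 to 0.63, adjusted p = 0.51 by limma). Lipe, which acts on the diglyceride that Pnpla2 leaves, was detected on 1 array of each group, and its difference of 0.12 (95% interval -0.29 to 0.53, adjusted p = 0.80 by limma) was that of a probe at background. Pnpla2 and Lipe thus gave no call in this comparison, and for Pnpla2 a difference beyond 0.63 lay outside the interval.

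Apoe was 10.77, 11.11 and 10.40 in WT1-high cells and 11.97, 11.99 and 11.55 in WT1-intermediate cells. Every WT1-intermediate array was above every WT1-high array. The difference was -1.08 (SE 0.27, adjusted p = 0.052 by limma). With the animal as a fixed block the adjusted p was 0.003 (limma). It also passed without WT1-intermediate replicate 30 (-1.22, adjusted p = 0.045), WT1-negative replicate 3 (0.023) or WT1-negative replicate 11 (0.045, all limma). Apoe stayed uncalled in 12 of 22 other settings. With arrays scaled to the median of all probes it was at -0.53 (adjusted p = 0.3, limma).

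Markers of other cell types moved with this group of genes, those of macrophages in the largest number. The summed linear level of 20 macrophage markers was 7280, 8170 and 5020 on WT1-high replicates 1, 8 and 29 and 26900, 22500 and 17000 on WT1-intermediate replicates 1, 8 and 30. Of these 20 markers, 14 were called lower and 0 higher in WT1-high cells by limma, and all 20 were lower at an unadjusted p under 0.05, with a median difference of -1.69. Lyz2, the macrophage lysozyme, was 11.08, 11.84 and 10.22 on the WT1-high arrays and 13.08, 13.04 and 12.37 on the WT1-intermediate arrays. WT1-intermediate replicate 1, which had the highest macrophage sum of its group, also had the highest Pparg, Lpl, Fabp5 and Adfp. Apoe was highest on replicate 8 of that group (11.99, against 11.97 on replicate 1). The part of macrophage RNA in the lower Pparg, Lpl, Fabp5, Adfp and Apoe levels of WT1-high cells was not tested. Markers of adipocytes, the other cells rich in these genes, stayed at background in all groups: of 9 markers, 0 to 2 were detected per array, and Retn, Cfd, Pck1, Lgals12, Cidec and Plin1 on none. Of 11 tested endothelial markers 2 were called lower and 0 higher by limma, 8 were lower at an unadjusted p under 0.05, and the median was -0.62, with sums of 3570 to 3990 and 2780 to 3970. Of 11 mesothelial markers 1 was called higher and 0 lower, 6 were higher at an unadjusted p under 0.05, and the median was 0.52. Of 8 tested stellate cell markers 1 was called higher and 2 lower, with a median of 0.2. The hepatocyte sum, which bears on Apoe, ranged from 645 to 3130 in WT1-high cells and from 764 to 2210 in WT1-intermediate cells. Of 12 hepatocyte markers, 7 to 9 were detected per WT1-high array and 7 to 8 per WT1-intermediate array. Ttr, the brightest, was 6.99, 9.70 and 9.41 in WT1-high cells and 8.04, 8.49 and 9.41 in WT1-intermediate cells. Alb was not detected in either group.

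**Figure D2:**
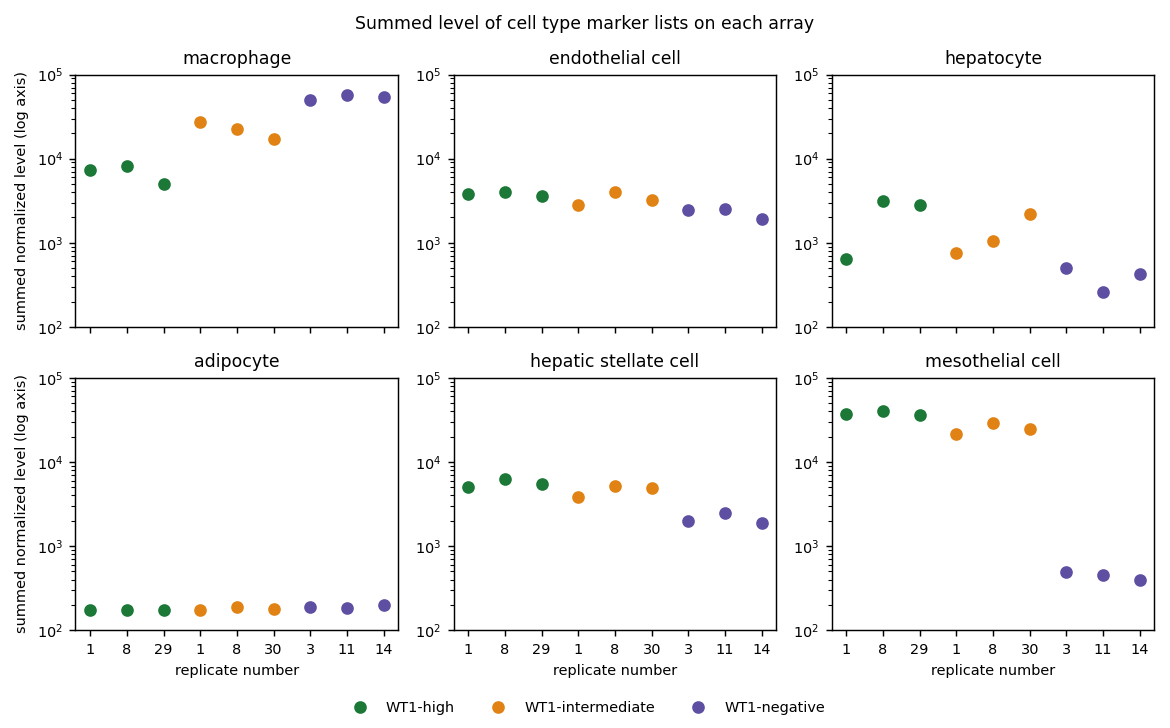
Summed normalized linear level of 6 cell type marker lists (y axis, log scale) on each array (x axis, replicate number). The macrophage sum was 5020 to 8170 in WT1-high cells, 17000 to 26900 in WT1-intermediate cells and 50400 to 57100 in WT1-negative cells, and the adipocyte sum stayed below 200.

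The second comparison set WT1-high cells of injured liver against WT1-negative cells of culture. All 6 genes above background other than Gpr120, namely Pparg, Lpl, Fabp5, Adfp, Pnpla2 and Apoe, fell below their WT1-negative level, and Gpr120 lay above it. By limma 0 of the 7 genes were called higher and 6 lower, and at an unadjusted p under 0.05 the counts were the same. These counts stand on a wide background, since 59.6% of all probes were called, 26.5% higher and 33.1% lower. The median difference of the 7 genes was -1.42, against -0.10 over all probes. Groups did not overlap in 5 of the 7, against 68.4% of all probes.

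Fabp5 differed most. It was 7.86, 7.47 and 8.01 on WT1-negative replicates 3, 11 and 14, and all of these lay above every array from injured liver. The WT1-high level was lower by 2.73 on the log2 scale (difference -2.73, SE 0.33, adjusted p = 3.3e-05 by limma), a 6.65-fold difference. The call was kept in all 19 other settings.

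Pparg was 7.26, 7.07 and 7.41 in WT1-negative cells, a tighter group than the WT1-intermediate arrays (SD 0.17 against 1.08). Against WT1-high cells the difference was -1.95 (SE 0.40, adjusted p = 0.0016 by limma), called in all 19 other settings. Apoe was 12.05, 13.04 and 12.87 in WT1-negative cells, all above the WT1-high arrays, with a difference of -1.89 (SE 0.27, adjusted p = 1e-04 by limma) that also held in 19 of 19 settings. Both genes were thus lower in WT1-high cells beyond the spread of either group.

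Lpl was 12.08, 10.39 and 12.07 in WT1-negative cells. Replicate 11 stood far below the other 2 and within the WT1-high range, so the groups overlapped. The difference was -1.42 (SE 0.38, adjusted p = 0.0074 by limma), and without WT1-negative replicate 11 it was -2.00 with an adjusted p of 2.7e-05 (limma). Adfp was 9.11, 8.89 and 9.11 in WT1-negative cells, and WT1-high cells were lower by 1.13 (difference -1.13, SE 0.31, adjusted p = 0.0091 by limma).

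Pnpla2 was 9.27, 9.58 and 9.48 in WT1-negative cells, the smallest called difference of the genes (-0.57, SE 0.17, adjusted p = 0.015 by limma). It was not called without WT1-high replicate 29 (-0.45, adjusted p = 0.059) or without WT1-negative replicate 11 (-0.50, adjusted p = 0.055), or with arrays scaled to the median of all probes (-0.60, adjusted p = 0.16, all limma). Lipe gave a difference of -0.03 (adjusted p = 0.89 by limma) at background. Of Pnpla2 and Lipe, only Pnpla2 could be measured well above background, and it was lower in WT1-high cells.

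The third comparison, WT1-intermediate cells against WT1-negative cells, separated the genes into those called lower in the cells from injured liver and those not called. Fabp5, Pnpla2 and Apoe fell below their WT1-negative level, by 1.40, 0.81 and 0.82 on the log2 scale. Pparg, Lpl, Adfp and Lipe were not called. Of the 7 genes 0 were called higher and 3 lower by limma, the same as at an unadjusted p under 0.05, while 58.0% of all probes were called, 24.5% higher and 33.5% lower. Of these calls 57.8% were lower, a share that became 76.9% with arrays scaled to the median of all probes. The median difference was -0.23, against -0.13 over all probes, and groups did not overlap in 3 of the 7, against 65.5% of all probes.

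The difference of Fabp5 was -1.40 (SE 0.33, adjusted p = 0.0038 by limma) and that of Pnpla2 -0.81 (SE 0.17, adjusted p = 0.0019 by limma), and both were called in 19 of 19 other settings. The Apoe call (-0.82, SE 0.27, adjusted p = 0.021 by limma) was lost without WT1-intermediate replicate 30 (-0.66, adjusted p = 0.078), WT1-negative replicate 11 (-0.62, adjusted p = 0.086) or WT1-negative replicate 14 (-0.72, adjusted p = 0.074), or without the detection filter (adjusted p = 0.075, all limma). Fabp5 was thus graded over the 3 groups, lowest in WT1-high and highest in WT1-negative cells, although the step from WT1-high to WT1-intermediate did not pass the test.

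Pparg differed by -0.23 between WT1-intermediate and WT1-negative cells (95% interval -1.12 to 0.66, adjusted p = 0.64 by limma). WT1-intermediate replicate 1 lay above all WT1-negative arrays and the other 2 below them, so that without replicate 1 the difference was -0.85 with an adjusted p of 0.0039 (limma). Adfp likewise differed by -0.08 (95% interval -0.77 to 0.61, adjusted p = 0.83 by limma), and by -0.54 with an adjusted p of 0.027 without WT1-intermediate replicate 1 (limma). Lpl differed by 0.38 (95% interval -0.46 to 1.22, adjusted p = 0.41 by limma), and the value was -0.18 without WT1-negative replicate 11. The position of WT1-intermediate cells for Pparg and Adfp therefore rested on 1 array.

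In both comparisons with culture, marker lists moved too. The macrophage sum was 50400, 57100 and 54200 on the WT1-negative arrays, with Lyz2 at 13.54, 13.62 and 13.61. On each of these arrays 17 of the 20 macrophage markers were detected, while Ptprc (the pan-leukocyte antigen CD45), Clec4f and Timd4 were detected on none of them. The sum weights bright genes such as Lyz2. In WT1-intermediate cells relative to WT1-negative cells, 6 of the 20 markers were called higher and 7 lower, with a median of -0.35. The shares of all probes called there were 24.5% higher and 33.5% lower. In WT1-high cells relative to WT1-negative cells, 3 of the 20 were called higher and 13 lower by limma, with a median of -2.04. Of all probes, 26.5% were called higher and 33.1% lower in that comparison. The sum of 11 mesothelial markers was 400 to 498 in WT1-negative cells, against 36000 to 40500 in WT1-high and 21200 to 29100 in WT1-intermediate cells. The sum of 12 stellate cell markers was 5090 to 6190, 3870 to 5220 and 1890 to 2440 in WT1-high, WT1-intermediate and WT1-negative cells. Of these 12 stellate markers, 6 to 9 were detected per WT1-high array and 7 on each array of the other groups. Gfap, Vipr1 and Rgs5 were detected in no group, and Lrat on no WT1-intermediate or WT1-negative array. Relative to WT1-negative cells, 3 of 8 tested were called higher and 3 lower in WT1-high cells, and 3 higher and 2 lower in WT1-intermediate cells. The hepatocyte sum was lowest in WT1-negative cells (258 to 506), where Apoe was highest. Their part in the differences was not tested.

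**Figure D3:**
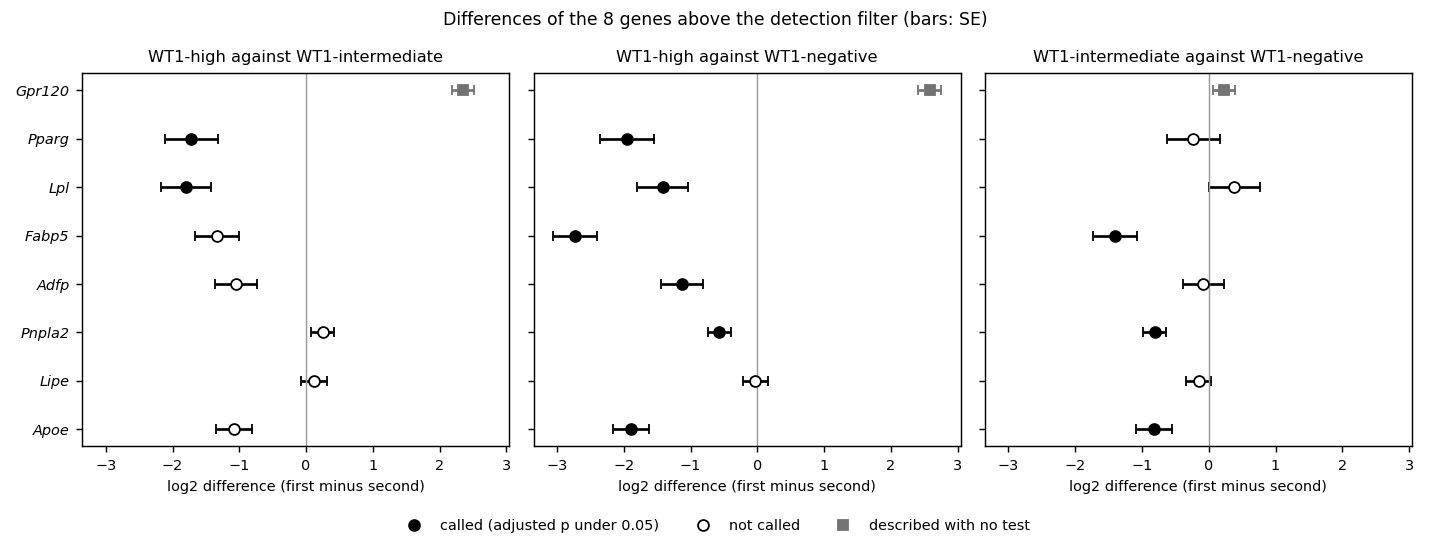
Log2 difference (x axis, first group minus second) of the 8 genes above the detection filter in the 3 comparisons, with SE. Filled circles were called at an adjusted p under 0.05, open circles were not, and grey squares mark Gpr120, described with no test. Gpr120 lay at 2.35 and 2.58 in the comparisons of WT1-high cells, while 2 and 6 of the 7 other genes were called lower there. Of all probes tested, 2.66% and 33.1% were called lower in these comparisons.

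A wider set of 106 genes of the same pathways was examined, of which 101 were on the array and 72 passed the filter. Between WT1-high and WT1-intermediate cells 0 were called higher and 3 lower by limma, with 10 higher and 12 lower at an unadjusted p under 0.05, and their median of 0.05 was that of all probes. Nr1h3, which encodes the oxysterol receptor LXRα, was 6.90 ± 0.28 in WT1-high cells and 8.68 ± 0.38 in WT1-intermediate cells (SD, n = 3), with a difference of -1.78 (adjusted p = 0.0016 by limma). Abcg1, a cholesterol exporter and known target of LXR, was 4.88 ± 0.05 and 6.11 ± 0.35 (SD, n = 3), with a difference of -1.23 (adjusted p = 0.004 by limma). Prkar2b, a regulatory subunit of the cAMP-dependent kinase that switches on lipolysis, differed by -0.84 (adjusted p = 0.016 by limma), a call lost without WT1-high replicate 29 (adjusted p = 0.051, limma). The 3 called genes were lower in WT1-high cells, as were Pparg and Lpl. All 20 macrophage markers were lower there too at an unadjusted p under 0.05 (limma). The part of macrophage RNA in these 3 differences was not tested. With 3.56% of all probes called in this comparison, few calls could fall in lists of this size, and the 14 tested genes of fatty acid oxidation, 12 of activation and triglyceride synthesis and 10 of uptake and binding had none. Of other fatty acid receptors only 2 of 5 were above the filter, and neither was called.

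Against WT1-negative cells, 22 of the 72 genes were called higher and 24 lower in WT1-high cells, with a median of -0.08. With 59.6% of all probes called (26.5% higher and 33.1% lower), neither these counts nor those of the single lists that follow were tested against other genes. Of lipolysis genes, 6 were tested, of which 2 were called higher and 4 lower. Mgll, which clears monoglyceride at the end of lipolysis, was 9.23 ± 0.22 in WT1-high and 5.26 ± 0.24 in WT1-negative cells (SD, n = 3), higher by 3.98 (adjusted p = 1.4e-08 by limma). Prkar2b fell by 2.96 on the log2 scale. Among uptake genes, the transporter Slc27a3 was higher by 2.90, Slc27a1 lower by 1.84 (difference -1.84), and the lipoprotein lipase inhibitor Angptl4 higher by 1.48. The lipase Lpl and its secreted inhibitor Angptl4 thus changed in opposite directions, the inhibitor being higher in WT1-high cells.

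Genes that load fatty acids into lipid changed in both directions. In WT1-high cells, Acsl1, which activates fatty acids, differed by -1.85, and Lpin1, which makes the diglyceride used for triglyceride, by -1.94, whereas the acyltransferase Agpat3 was higher by 1.44. Of 12 genes in this list, 3 were called higher and 4 lower. Cebpa, a partner of PPARγ in adipocyte differentiation, was detected on no WT1-high array and was at least 3.20-fold lower there. Of 14 oxidation genes, 7 were called higher and 3 lower, beside 26.5% and 33.1% of all probes, with Hadhb (2.05) and Acaa2 (1.17) highest and Acads (-1.31) lowest. The oxidation list had the only positive median in this comparison (0.32), beside -0.10 over all probes.

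Of 15 tested apolipoprotein and sterol genes, 4 were called higher and 5 lower in WT1-high than in WT1-negative cells, near the 59.6% called of all probes. Apoa1 and Apoc3, hepatocyte apolipoproteins, were at least 6.42-fold and 3.49-fold higher, since neither was detected on a WT1-negative array. Apoc2, the cofactor of lipoprotein lipase, differed by -2.52, in the same direction as Lpl and Apoe. The hepatocyte marker sums given above moved with Apoa1 and Apoc3, and their part was not tested.

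Between WT1-intermediate and WT1-negative cells, 20 of the 72 genes were called higher and 23 lower, with a median of -0.16, near the 58.0% called of all probes (24.5% higher and 33.5% lower). Mgll was again higher, by 3.43 (adjusted p = 5.1e-08 by limma), and Nr1h3 by 2.62 (adjusted p = 2.5e-06 by limma). Lrp1, a receptor for Apoe-bearing particles, was higher by 2.53, and Apoc1 by 2.23. Acsl1 (-1.86), Lpin1 (-1.99) and Slc27a1 (-1.79) were lower, with values near those of WT1-high cells against the same 3 arrays. Nr1h3 was thus highest in WT1-intermediate cells of the 3 groups, being called in all 3 comparisons, and stood at 6.07 ± 0.24 (SD, n = 3) in WT1-negative cells, while Pparg was lowest in WT1-high cells and did not differ detectably between the others.

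**Figure D4:**
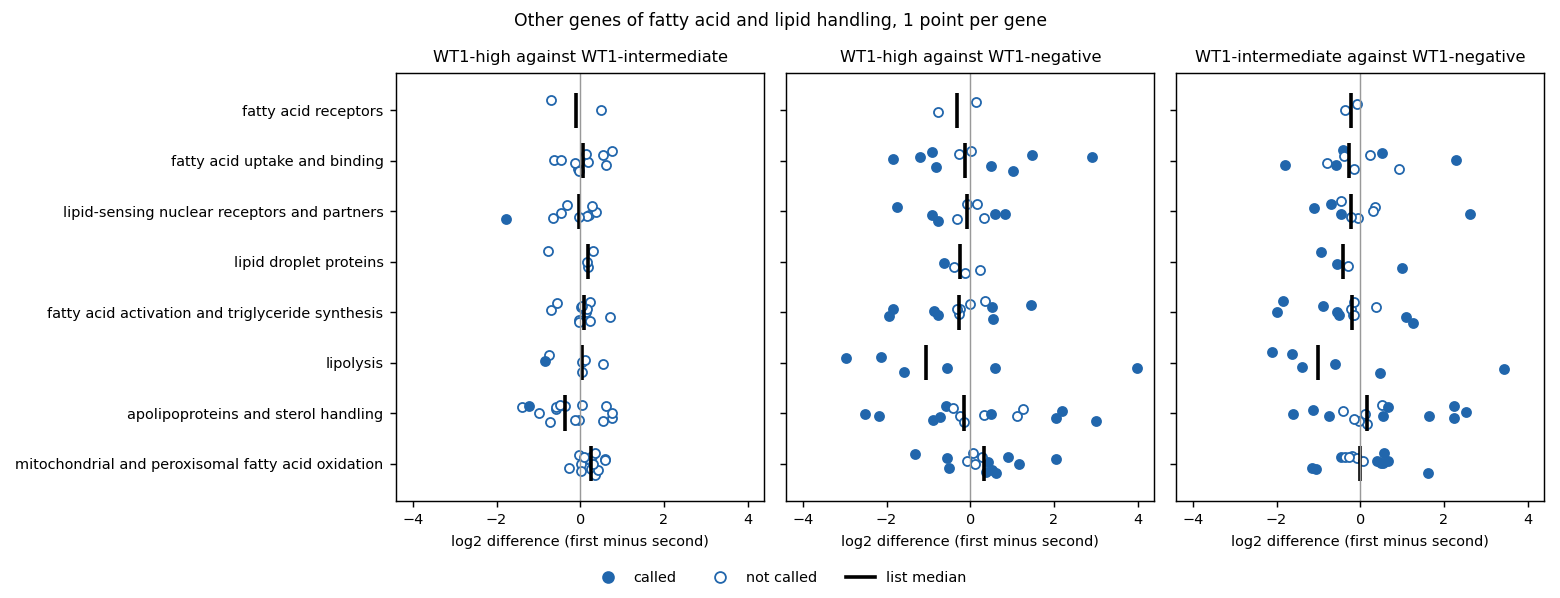
Log2 difference (x axis, first group minus second) of the 72 other fatty acid and lipid genes above the detection filter, 1 point per gene, by functional list (y axis). Filled points were called, and black bars are list medians. Calls numbered 3 between WT1-high and WT1-intermediate cells and 46 and 43 in the comparisons with WT1-negative cells, where they lay on both sides of 0. Of all probes tested, 3.56%, 59.6% and 58.0% were called in these comparisons.

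Between 17253 and 19774 probes were detected per array (38.1% to 43.7%), mean signals before normalization were 147 to 221 on the WT1-intermediate arrays and 231 to 289 on the others, and median negative control signals 76.3 to 93.6. Of the calls in the first comparison 74.6% were lower in WT1-high cells, a share that became 60.8% without background correction and 4.51% with each array scaled to the median of all probes, a scaling that moved the median of all tested probes to 0.45.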

How the data were processed

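The deposited files held, per the authors' methods, unnormalised summary probe profiles exported from BeadStudio, as a linear intensity per probe with a detection p-value, the share of the array's negative controls brighter than the probe. The authors then processed them with limma, and their genome build is not given in the sources used here. Here, limma 3.58.1 in R 4.3.3 was used on 45281 gene probes and 936 negative controls. The deposited intensity values were background corrected, quantile normalized and log2 transformed with neqc (offset 16). The joined table gave the same values as the tables used (largest difference 0). The column of WT1-intermediate replicate 30 carries the number 29, and was assigned by its group. Its detection p-value was recomputed from the negative controls, a rule that gave the same detected probes as deposited on the other 8 arrays (largest gap 0.00107).

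Probes with a detection p-value under 0.05 on at least 3 arrays (20573) were fitted with the 3 groups as levels (6 residual and 5.19 prior degrees of freedom). Limma's moderated two-sided test was adjusted by Benjamini-Hochberg over all probes, and an adjusted p under 0.05 is a call. Errors are SD over 3 arrays, or SE from the fit. A gene is given by its brightest probe. The number of arrays limits the precision. In simulated data on these probes, 192 of 200 probes changed by 2 on the log2 scale were recovered for WT1-high against WT1-intermediate, with 9 false calls. The simulated arrays were independent and shared no animals. The genes tested besides Gpr120 differed by at most 1.80 in this comparison, so this recovery does not measure how well such differences are found.

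Genes and lists were chosen with earlier results of these data known. The symbol found 170 of the 182 list entries and a former symbol 7 more, which left 5 with no probe. Pathway genes named were at most 3 called genes per list and comparison, those with the largest differences among groups that did not overlap.

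The study gives 3 animals for the 6 in vivo arrays. Deviations from group means correlated at 0.35 for replicates 1, 0.34 for replicates 8, and 0.47 for 29 with 30, and at -0.39 to 0.03 for other combinations. Numbers were therefore taken to pair arrays, and fits with the animal as a block were run as alternatives, those with 29 and 30 as 1 animal chosen after seeing the data.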

Additional observations from a re-analysis of the deposited data

How the results depend on the processing

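Counts moved most between settings in WT1-high against WT1-intermediate. Its 733 called probes were 459 without background correction, 335 without the filter, 339 with the compared groups alone, 2684 with arrays scaled to the median of all probes, 1749 and 1789 with a random and a fixed replicate block, 1802 and 1515 with the same blocks taking 29 and 30 as 1 animal, and 325 to 865 with 1 array left out. The lowest count was without WT1-intermediate replicate 1. The 2 called genes of the list became 0 without background correction, with offset 50, with median scaling over all probes and without the filter, 1 with the compared groups alone, 4 with cyclic loess, with median scaling over the tested probes (chosen after seeing the data), with probes detected on all 9 arrays (of 6 tested) and with the fixed block taking 29 and 30 as 1 animal, 5 with the other replicate blocks, and 0 to 4 with 1 array left out (0 without WT1-high replicates 1, 8 or 29, 4 without WT1-intermediate replicate 30, and 1 each without WT1-negative replicate 14 and WT1-intermediate replicate 1). The cause was not tested, except that the settings with fewer arrays or a stricter filter also test fewer of either.

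Against WT1-negative cells the counts of called probes were 7967 (WT1-high) and 7711 (WT1-intermediate) with probes detected on all 9 arrays, where fewer were tested, and the number of called genes in the WT1-high comparison, 6, stayed within 1.5 times under every setting run. Differences of single genes moved more, and without background correction Pparg was at -0.89 and Fabp5 at -1.32 there. The 3 called genes of the WT1-intermediate comparison were 5 without WT1-intermediate replicate 1. Reversed differences were not called in either setting. For Lipe they were -0.37 (median over tested probes) and 0.00 (without WT1-intermediate replicate 1) between WT1-high and WT1-intermediate, 0.05 (cyclic loess) and -0.10 to 0.01 (1 array left out) between WT1-high and WT1-negative, and 0.31 (median over tested probes) between WT1-intermediate and WT1-negative cells. In that last comparison Pparg was -0.85 to 0.16 with 1 array left out (0.16 without WT1-intermediate replicate 30), Lpl was -0.19 with median scaling over all probes and -0.18 to 0.67 with 1 array left out (-0.18 without WT1-negative replicate 11), and Adfp was -0.54 to 0.21 with 1 array left out (0.21 and 0.08 without WT1-intermediate replicates 8 and 30). Median scaling over all probes moved the median of all tested probes to 0.45, -0.07 and -0.44 in the 3 comparisons. Relative to those shifts, called genes among the 10 had the directions reported. The Gpr120 difference between WT1-high and WT1-intermediate ranged from 0.87 to 2.50. The replicate block changed no call of the genes other than Fabp5, Adfp and Apoe in the first comparison. With 3 arrays a group and signals near background, Cd36, Fabp4 and Lipe allow no statement on their levels.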
